A study of Rattus norvegicus with 4 samples.

Results

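This report describes how the lateral wall of the rat cochlea differed between 3-nitropropionic acid (3-NP) and saline on day 3 after infusion, gene by gene and by gene function, with most attention to genes other than the interferon and chemokine genes. The comparison takes every Affymetrix probe set outside the controls that carried exactly 1 gene symbol on the day 3 array design, which gave 5669 genes of the 13812 on either design of the series. Of these, 3974 were bright enough to count as measured. There was 1 array on each side. No difference could therefore be checked against replicates, and no test was run.

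The rats were female Sprague-Dawley animals of 180 to 210 g and 8 to 10 weeks. The left round window niche received either saline or 300 mM 3-NP in saline, the right cochlea of the animals was destroyed surgically, and tissue was taken 3 days later. Label fields place the tissue in the upper part of the basal turn, and elsewhere in the second turn with the stria vascularis left out. Neither the number of animals behind an array nor any pooling of tissue is stated in the sources used here. These 2 treatments were also sampled on day 1 with a different array design, and those values are given only beside genes that both designs measured.

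3-NP blocks succinate dehydrogenase, the enzyme that is both complex II of the mitochondrial respiratory chain and a step of the tricarboxylic acid cycle. The lateral wall holds the spiral ligament, whose fibrocytes take up potassium from perilymph and pass it through gap junctions to the stria vascularis, which secretes it into endolymph. The ligament also holds the collagen-rich matrix that anchors the stria to the bone of the otic capsule.

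Values are MAS5 signals, an Affymetrix summary of the brightness of the probes of a probe set on a linear scale. Signals under the 30th percentile of an array, 9.22 in saline and 9.85 in 3-NP, were raised to that floor. A probe set counted as measured when its signal was at or above an array's 50th percentile, 18.7 in saline and 20 in 3-NP, on either array or both. A gene was represented by its brightest measured probe set. All ratios are log2 of 3-NP over saline, and they are given relative to the median measured gene, whose own log2 ratio was 0.10. Where 1 of the signals was at the floor the difference is a bound, written as "at least". Genes with a ratio of 1 or more in size, which is 2-fold, are called higher or lower.

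Probe sets of the same gene give a measure of technical error in these arrays. From 803 genes with several measured probe sets, the log2 ratio from 1 probe set had an SD of 0.47. Of 83 such genes with a 2-fold difference in the brighter probe set, for 71 the next probe set was on the same side, and for 30 it was 2-fold apart too. The log2 ratios of 18 hybridisation spike-in probe sets had an SD of 0.15 and a median of -0.10 relative to the median gene, and these cover only hybridisation and scanning. Neither spread covers animals or dissection. The ratio of 3' to 5' control signals, a sign of RNA length, was 3.22 for Actb in saline and 2.79 in 3-NP, and 1.26 and 1.17 for Gapdh. For the hexokinase control it went the other way, 1.99 in saline and 2.92 in 3-NP.

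Relative to the median gene, 366 genes were higher in 3-NP by 2-fold or more, 9.21% of those measured, and 325 were at least 2-fold lower, or 8.18%. Counts of higher and lower genes in each list below stand beside these shares. Of the higher genes 83 were bounds, and of the lower genes 67. As deposited, without centring on the median gene, 433 were higher (10.9%) and 255 lower (6.42%), so higher genes made up 53% of the calls after centring and 62.9% before. The middle 50% of genes lay between -0.44 and 0.44. Outside the interferon and chemokine lists there were 339 higher genes. Whether some of those also respond to interferon was not tested. By 4-fold or more, 34 genes were higher, 14 of them on the interferon and chemokine lists, and 32 were lower.

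The interferon and chemokine lists are given here by count only. Of 32 measured interferon-induced and antigen presentation genes 23 were higher and 0 lower, with a median ratio of 1.57. Of 5 measured chemokine genes 4 were higher and 0 lower. Over all measured genes, 16 were 8-fold or more higher and 0 were 8-fold or more lower.

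**Figure D1:**
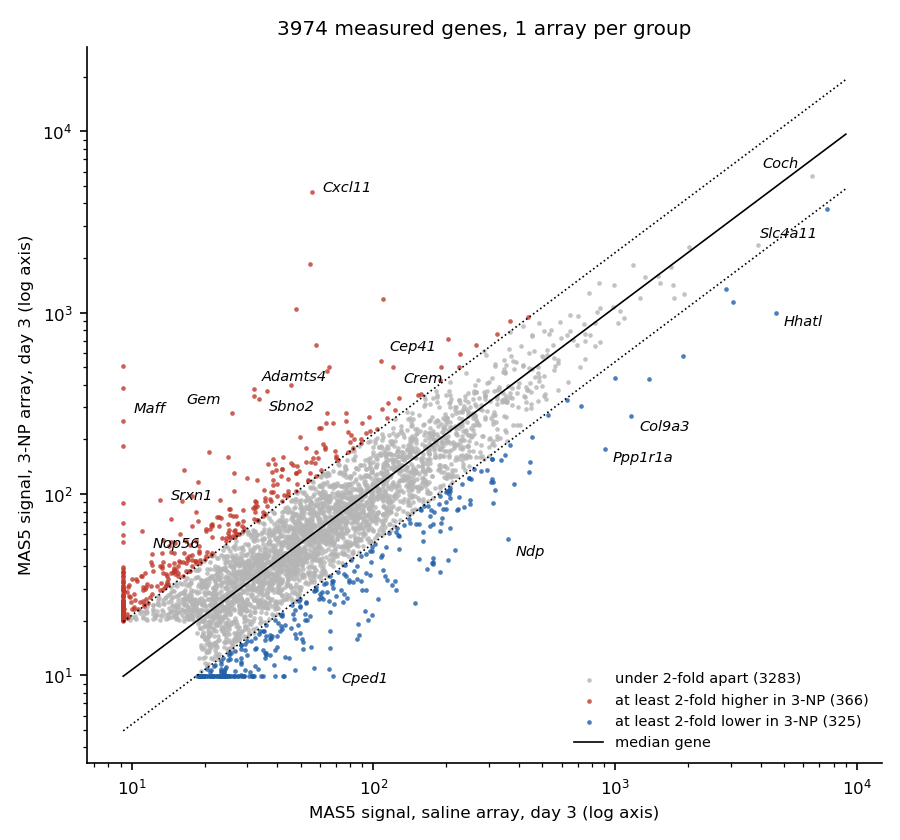
MAS5 signals of the 3974 measured genes in the saline array (horizontal, log axis) and the 3-NP array (vertical, log axis) at day 3, 1 point per gene and 1 array per group, with signals under the floor drawn at the floor. The solid line is the median gene and the dotted lines are 2-fold above and below it. The 366 red genes lie above and the 325 blue genes below, and the vertical and horizontal rows of points at the left and lower edges are the genes that have only a bound.

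Calls were more frequent among dim genes. Of 1956 genes with a mean signal under 50, 12.4% were higher and 10.4% lower, against 5.33% and 5.03% of 338 genes between 200 and 1000. Among the 23 genes above 1000, 0 were higher and 5 were lower. Those 5 are among the genes described next.

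The pair of brightest genes in saline, Slc4a11 and Coch, are known from the spiral ligament. Of the 10 brightest 5 were at least 2-fold lower in 3-NP and 0 higher. These 10 were picked by their saline signal, the denominator of the ratio, and that choice by itself favours lower ratios. Slc4a11, a membrane transporter of the bicarbonate transporter family found in ligament fibrocytes, had the highest signal in saline, 7504, and 3723 in 3-NP, which puts it at -1.11. Under quantile normalization it was at -0.68, and at -0.99 after lowess. Coch, which encodes cochlin, the main noncollagen protein of the cochlear matrix, had 6548 and 5677, a ratio of -0.31 that turned to 0.23 under quantile normalization. Coch therefore differed by less than the spread between probe sets, while Slc4a11 lay near the 2-fold line.

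Other bright genes were further apart. Hhatl, a member of the membrane-bound O-acyltransferase family, had 4616 in saline and 990 in 3-NP, 5.0-fold lower. C10h17orf67, the fourth brightest, had 3893 and 2358, at -0.82. Aif1l, which encodes an actin-bundling protein, had 3059 and 1145, a ratio of -1.52. Atp1b2, a beta subunit of the sodium pump, had 2881 and 1356, at -1.19, and at -0.80 under quantile normalization. Gas2, a growth arrest gene whose product binds actin and microtubules, had 1904 and 580, at -1.82. By contrast the trafficking GTPase gene Arf1 had 2018 and 2290, at 0.08, Phyh, an enzyme of phytanic acid breakdown, was at -0.64 and Cdc42 at -0.70. A second Cdc42 probe set lay on the other side, at 0.47.

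**Figure D2:**
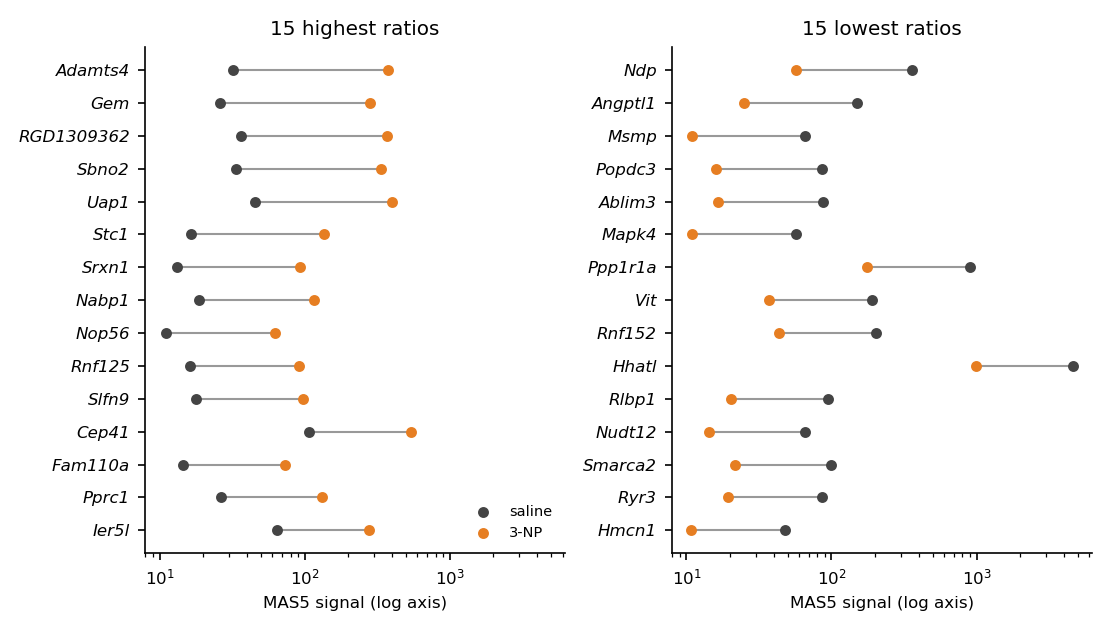
MAS5 signals in saline (dark points) and 3-NP (orange points) at day 3 for the 15 genes of highest and the 15 of lowest ratio among genes with both signals above the floor and outside the interferon and chemokine lists (log axis, 1 array per group). The highest genes had saline signals between 11 (Nop56) and 107 (Cep41), while Hhatl and Ppp1r1a stood out among the lowest for their brightness, at 4616 and 904 in saline.

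Where both signals were above the floor, the highest genes outside the interferon and chemokine lists had no single function. Adamts4 encodes an aggrecanase, a protease that cuts the cartilage proteoglycan aggrecan, and its signal was 32.0 in saline and 377 in 3-NP, 11-fold higher. Gem, a small GTPase of the RGK family that restrains voltage-gated calcium channels, had 26.1 and 281, 10.0-fold higher. Sbno2, a transcriptional coregulator of the interleukin-10 response, had 33.6 and 335, 9.29-fold higher. The 3-NP signals of these genes were all above 200, far from the floor.

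Uap1, which makes the sugar donor UDP-N-acetylglucosamine, had 45.7 in saline and 399 in 3-NP, a ratio of 3.03. Stc1, which encodes the secreted glycoprotein stanniocalcin, had 16.4 and 135, at 2.94. Then came Nabp1, a single-stranded DNA binding protein gene, at 2.54 with 18.8 and 117, and Pprc1, a coactivator of the PGC-1 family that drives nuclear genes of mitochondria, at 2.21 with 26.4 and 131. Slfn9 (2.36), Fam110a (2.23) and RGD1309362 (3.24) were also among the 15 highest, and whether they belong with the interferon-induced genes was not tested. Each of these genes was dimmer than 50 in saline, where the median signal of the array was 18.7.

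At the other end lay Ndp, which encodes norrin, the ligand of the Frizzled-4 receptor that is needed for blood vessels of the retina and the cochlea. Ndp had 359 in saline and 56.5 in 3-NP, 6.81-fold lower, and its other probe set gave a ratio of -3.76. Angptl1, a secreted angiopoietin-like protein, had 149 and 25, at -2.68, and Msmp was at -2.68 with 65.4 and 10.9. Ppp1r1a, the protein phosphatase inhibitor that protein kinase A activates, had 904 and 176, 5.52-fold lower. Vit encodes vitrin, a matrix protein with the same von Willebrand factor type A domains as cochlin, and had 189 and 37.2, at -2.45.

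Further low genes were Mapk4, an atypical MAP kinase (57.0 in saline and 11 in 3-NP), the actin-binding LIM protein gene Ablim3 (87.3 and 16.6) and Popdc3, a popeye family gene whose membrane protein binds cyclic AMP (85.6 and 15.9). Smarca2, an ATPase of the SWI/SNF chromatin remodelling complex, had 98.7 and 21.5, and the calcium release channel gene Ryr3 had 86.2 and 19.2. Rlbp1, a retinaldehyde-binding protein gene, was at -2.32, Rnf152, a lysosomal ubiquitin ligase gene, at -2.33, the NADH hydrolase gene Nudt12 at -2.31 and the matrix protein gene Hmcn1 at -2.25. In 3-NP the signals of Mapk4, Ablim3, Popdc3, Ryr3, Nudt12 and Hmcn1 were all below 20, the median signal of that array, whereas in saline all were above it.

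For genes at the floor in 1 array only bounds can be given. Maff, a small bZIP transcription factor, had 2.43 in saline and 253 in 3-NP and was at least 25.6-fold higher. Mlf1, a leukaemia-linked adaptor gene, was at least 6.01-fold higher and Rab23, a GTPase of hedgehog signalling, at least 3.77-fold. Zc3h12a, the RNase regnase-1 that degrades inflammatory mRNAs, was at least 3.75-fold higher. In the other direction Bmper, an antagonist of bone morphogenetic proteins, was at least 4.26-fold lower, the tumour suppressor gene Wwox at least 4.59-fold, and Ecm2 at least 3.47-fold. Cped1 had 67.8 in saline and 8.79 in 3-NP, and Mpped2 had 42.8 and 9.57. Apart from Maff, all these genes had a signal under 70 in their brighter array.

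Lists of transcription factor genes differed from each other. Of 29 genes for bZIP, AP-1, early growth response and Krüppel-like factors on the array, 20 were measured, and 7 of them (35.0%, beside 9.21% of all measured genes) were higher and 0 lower. Their median ratio was 0.34, and 0 when dim genes were kept. Crem, the cyclic AMP response element modulator, had 120 in saline and 503 in 3-NP, 3.90-fold higher, and its next probe set gave 1.58. Another Crem probe set, below the filter, gave -0.15. Ier5l, a relative of the immediate early gene Ier5, had 64.4 and 278, at 2.01, and the orphan nuclear receptor gene Nr4a3 had 13.3 and 47.3, at 1.74. Both are counted among the 7, although neither belongs to a family that the list names. Creb3l3, a membrane-bound bZIP factor gene, was at 1.12, and Klf7 at 1.34 and Fosl2 at least 2.38-fold higher, both named after their values were seen. Further Klf7 probe sets, below the filter, gave -0.12, a bound of 0.68, and 1 at the floor in both arrays. With the filter set to require both arrays, 3 of 16 measured genes were higher.

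Because CREM binds the cyclic AMP response element and small MAF proteins pair with other bZIP factors at AP-1-like sites, the 250 bases before the start of these genes were searched in RefSeq's promoter table of the GRCr8 rat assembly. The searched letters were TGACGTCA for the cyclic AMP response element and TGAGTCA for the AP-1 site, on both strands, and the patterns do not overlap each other. Of 33469 promoters in the table, 531 held the first (1.59%) and 1354 the second (4.05%). The windows shown are those of the higher genes in which a match was found, Maff (chr7:112792537-112792786, plus strand), Crem (chr17:58984547-58984796, plus strand, 1 of its 3 listed promoters) and the antioxidant gene Srxn1 (chr3:161064562-161064811, plus strand), with the matched letters in capitals.
Maff: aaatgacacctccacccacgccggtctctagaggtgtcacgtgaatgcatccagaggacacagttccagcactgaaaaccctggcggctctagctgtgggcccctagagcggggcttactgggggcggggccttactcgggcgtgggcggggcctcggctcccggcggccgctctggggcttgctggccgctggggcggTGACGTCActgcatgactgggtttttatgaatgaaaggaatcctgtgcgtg
Crem: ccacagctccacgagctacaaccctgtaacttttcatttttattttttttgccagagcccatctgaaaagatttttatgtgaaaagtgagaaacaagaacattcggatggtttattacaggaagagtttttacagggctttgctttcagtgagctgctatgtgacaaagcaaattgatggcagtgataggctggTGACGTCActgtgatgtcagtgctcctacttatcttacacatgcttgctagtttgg
Srxn1: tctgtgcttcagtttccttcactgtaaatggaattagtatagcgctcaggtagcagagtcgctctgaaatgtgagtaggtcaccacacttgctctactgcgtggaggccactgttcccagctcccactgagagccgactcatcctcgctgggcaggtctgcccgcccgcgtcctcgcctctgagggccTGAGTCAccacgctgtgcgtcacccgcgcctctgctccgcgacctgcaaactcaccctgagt
The response element began 51 bases before the Maff start and 56 bases before the Crem start, and the AP-1 site began 62 bases before the Srxn1 start. Of the 3 Crem promoters, 2 held the response element. Of the 7 higher genes of the list, 6 were matched in the table. The promoters of Creb3l3, Fosl2, Ier5l, Klf7 and Adamts4 held neither pattern in this window, and those of Gem, Nr4a3 and Stc1 were not analysed here. Among lower genes Vit held an AP-1 pattern and Ndp held neither. A match of letters is a description of the window and was not tied to any binding.

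Zinc finger factors had few higher genes. Of 111 measured zinc finger factor genes 2 were higher (1.80%) and 9 lower (8.11%, beside 8.18% of all genes), with a median of -0.21 and 76 of the 111 below the median gene. The share of lower genes was thus at the background, and that of higher genes was below 9.21%. Zfp608 had 14.2 in saline and 40.4 in 3-NP, at 1.41. Znf846, Zfp136 and Zfp322a were at least 2.69-fold, 2.66-fold and 2.60-fold lower, all with saline signals under 25, and a Zfp322a probe set below the filter gave a bound on the other side, 0.82.

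Of 104 developmental transcription factor genes on the array, 49 were measured, with 3 higher and 8 lower (16.3%) and a median of -0.10, or 0.0023 as deposited. The counts were 3 and 3 of 37 with both arrays required to pass, and 3 higher and 4 lower with the floor at the 50th percentile. Foxl2, a forkhead factor, had 47.6 and 16.1, at -1.66, Ebf3 had 35.6 and 12.5, at -1.6 (a probe set below the filter gave a bound on the other side, 0.85), and Etv1, an ETS factor, had 222 and 81.9, at -1.54. The other Etv1 probe sets gave -2.56 as a bound, -1.09, and 1 at the floor in both arrays. Tbx18, the T-box factor required for the development of the spiral ligament, had 351 and 165, 2.28-fold lower. The endothelial SOX factor genes Sox18 and Sox7 were higher, at 1.23 and 1.01, though Sox7 was at 0.98 under quantile normalization and 0.99 after lowess.

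**Figure D3:**
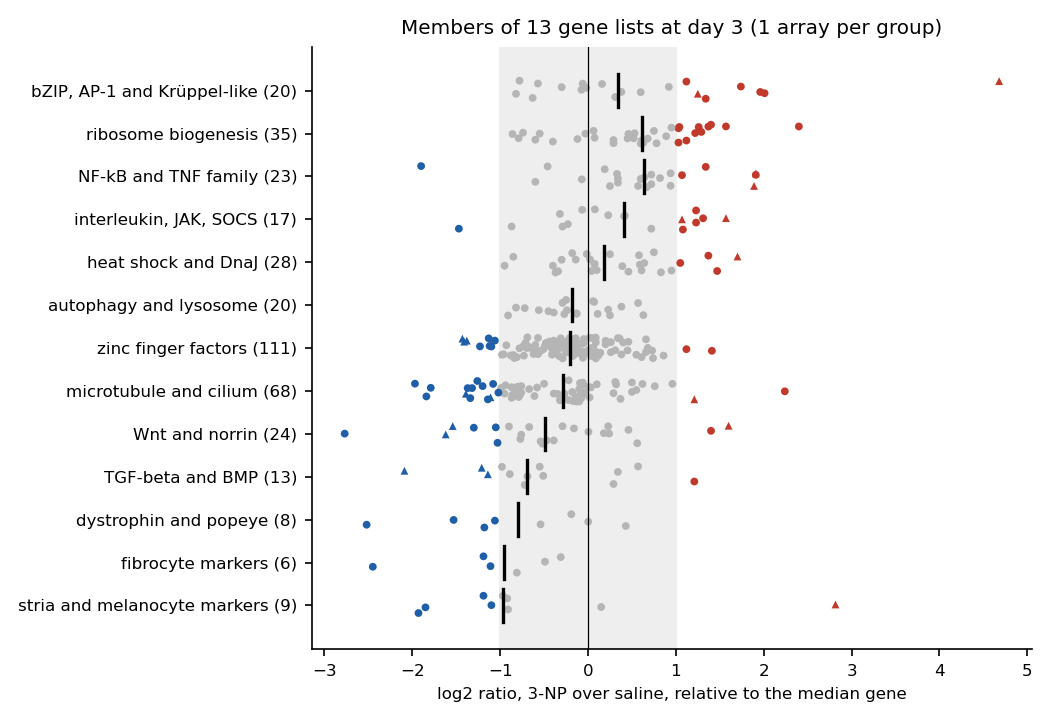
Relative log2 ratios of 3-NP over saline at day 3 for the measured members of 13 gene lists (number measured in brackets), 1 point per gene and 1 array per group, with triangles for bounds and a black bar at each list's median. The grey band marks differences under 2-fold. Ribosome biogenesis had 11 red and 0 blue members of 35, and the microtubule and cilium list had 13 blue and 2 red members of 68.

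Genes for making ribosomes were higher in 3-NP more often than genes at large. Of 40 genes of ribosome biogenesis and RNA polymerase on the array 35 were measured, 11 were higher (31.4%, beside 9.21%) and 0 lower, and the median was 0.61, or 0.57 when dim genes were kept. None of these 11 was a bound. Nop56, a core protein of the box C/D particles that methylate ribosomal RNA, had 11 in saline and 62.2 in 3-NP, 5.27-fold higher. Wdr43, a subunit of the small subunit processome, had 20.2 and 64.3, at 1.57. Rrp12, which helps to export pre-ribosomes, had 28.8 and 81.5, at 1.40, and Nol8 had 9.80 and 27.1, at 1.37.

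The other 7, named after their values were seen, were Nifk (1.29), Noc4l (1.26), Polr2h (1.22), Utp14a (1.12), Nop2 (1.04), Imp4 (1.03) and Nol9 (1.03). Those of the highest signal were Nop2, an RNA methyltransferase gene with 103 in saline and 227 in 3-NP, and Utp14a, with 93.2 and 217. The count stayed at 11 of 35 under quantile normalization and after lowess, was 8 of 31 with both arrays required to pass, and 5 of 35 with a pseudocount of 16.

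Neighbouring steps of gene expression differed less. Of 86 measured splicing and RNA helicase genes 8 were higher (9.30%, at the background) and 0 lower, with a median of 0.15. Dhx37 and Ddx55, helicases of ribosome assembly, were at 1.6 each, and Dhx58, an antiviral helicase, was at least 9.04-fold higher. Of 58 translation factor and tRNA synthetase genes 4 were higher and 4 lower. Pabpc4, a poly(A)-binding protein gene, was at 1.20, Pum3 at 1.17, Wars2, the mitochondrial tryptophan synthetase gene, at -1.34 and Tnrc6b, a component of miRNA silencing, at -1.31. A Wars2 probe set below the filter gave a bound on the other side, 0.43. Of 17 measured ribosomal protein genes 1 was higher, Mrpl17 with 13.8 and 36.3.

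Of 69 chromatin genes 5 were higher and 4 lower, near the background in both directions. Besides Smarca2, Mbd5, a methyl-CpG-binding domain gene, was at -1.63 with 32.2 and 11.2. Kat2a, the GCN5 histone acetyltransferase gene, had 26.5 and 104, at 1.87, and Arid5a, which stabilises inflammatory mRNAs, had 41.7 and 138, at 1.62, with 1.45 by its other probe set.

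Inflammatory signalling genes outside the interferon and chemokine lists were also higher more often than genes at large. Of 26 interleukin, colony-stimulating factor, JAK and SOCS genes on the array, 17 were measured, 6 were higher (35.3%, beside 9.21%) and 1 lower. Socs5, a suppressor of cytokine signalling, had 190 in saline and 503 in 3-NP, 2.48-fold higher. Cish, another member of that family, had 27.2 and 68.4, at 1.23, and Ebi3, a subunit of interleukins 27 and 35, was at least 2.98-fold higher. Il6st, the shared gp130 receptor subunit, had 69.1 and 173, at 1.23 (named after its value was seen). Il17d, the only lower member, had 54.6 and 21.2, at -1.47. Of the higher calls 2 were bounds. After lowess 5 were higher, and with the floor at the 50th percentile 4, beside 224 of all 3974 measured genes.

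In the NF-kB and TNF receptor list 23 genes were measured of 26 on the array, with 5 higher (21.7%) and 1 lower, and a median of 0.64. Bcl3, an atypical IkB protein that binds NF-kB in the nucleus, had 23.2 and 93.1, at 1.91, and 3.06 by another probe set. Zc3h12a is in this list too. Tnfsf9, the 4-1BB ligand gene, was at least 3.70-fold higher. Zc3h12a and Tnfsf9 were the 2 bounds among the higher genes, and with the floor at the 50th percentile 3 genes were higher. Tnfsf13, which encodes the B cell factor APRIL, went the other way, with 311 in saline and 89.4 in 3-NP, 3.72-fold lower.

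Of 14 innate sensor and complement genes 2 were higher and 2 lower (14.3% each way, beside 9.21% and 8.18%). Complement C2 had 189 and 427, at 1.07, with 1.19 and 1.32 by its other probe sets, and the signalling kinase gene Irak2 was at 1.03. Mavs, the mitochondrial adaptor of RNA sensing, had 69.9 and 27.3, at -1.45, and Colec11, a collectin gene, was at -1.43. Among receptors, Gpr84, a receptor for medium-chain fatty acids, was at least 3.59-fold higher, Gpr182 was at 1.80, and Ackr1, the chemokine-binding receptor of venules, was at 1.76 with 14.3 and 51.8. Adgrg2, an adhesion receptor gene, was at -2.01 with 119 and 31.5. In all 6 of 29 receptor and RGS genes were higher and 6 lower, 20.7% each way, beside 9.21% and 8.18% of all measured genes. Of these calls 3 were bounds, and with the floor at the 50th percentile 3 were higher and 4 lower.

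Markers of leukocytes did not stand with these genes. Of 9 macrophage and monocyte markers on the array, 5 were measured, 0 were higher and 3 lower (1 lower as deposited), and their summed signal was 320 in saline and 176 in 3-NP. Lyve1, the hyaluronan receptor of lymphatic vessels and some resident macrophages, had 124 and 29.4, 4.50-fold lower. Mrc1 was at -1.08 and Cd163 at -1.07, both less than 2-fold lower as deposited (-0.98 and -0.97), and Fcgr1a was at 0.02 and Laptm5 at -0.27. For the single measured neutrophil marker, Csf3r, the signals were 21.1 and 18.5. Of 16 lymphocyte markers 2 were measured, with summed signals of 43.6 and 46.4. Fewer cells of a type and less RNA per cell cannot be told apart in such tissue samples, and the part of cell content in any list was not tested.

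Genes of the microtubule and the cilium were lower in 3-NP more often than genes at large. Of 108 tubulin, kinesin, dynein and cilium genes on the array 68 were measured, 13 were lower (19.1%, beside 8.18%) and 2 higher, with a median of -0.29 and 52 of 68 below the median gene. Ttll3, a tubulin glycylase, had 51.0 in saline and 13.9 in 3-NP, 3.92-fold lower. Klc3, a kinesin light chain gene, had 440 and 132, at -1.84. Bbs7, a subunit of the BBSome that carries membrane proteins into cilia, had 50.8 and 15.8, at -1.79, and -0.19 by a probe set below the filter.

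Intraflagellar transport genes were among the rest, which are named here after their values were seen. Ift57 had 260 and 138, at -1.02, Ift70b had 97.4 and 41.9, at -1.32, Ift80 had 60.2 and 28.1, at -1.20, and Ift70a1 was at -1.14. Ift70a1 and Ift70b are close paralogs, and whether their probe sets tell them apart was not tested. The transition zone genes Cep290 and Nphp4 were at -1.26 and, as a bound, -1.11. Further ones were Dnal1 (-1.34), Katnbl1 (-1.37), Cfap126 (-1.08) and, as a bound, Cfap144 (-1.39). Other Katnbl1 probe sets gave -0.98, -0.63 and -0.096.

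Cep41, a ciliary protein that brings a glutamylating enzyme to axonemal tubulin, stood apart from the list. It had 107 in saline and 541 in 3-NP, 4.72-fold higher, with 1.56 by its other probe set. The number of lower genes was 13 under quantile normalization, 14 after lowess, 11 as deposited, and 7 of 54 with both arrays required to pass. Before symbols of unrelated genes were taken out of it, it held 112 measured genes with 18 lower and 2 higher.

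Of 37 actin, myosin and LIM protein genes 5 were higher and 5 lower (13.5% each way). Ablim1 had 66.2 and 17.6, at -2.01, close to its relative Ablim3, and a further Ablim1 probe set below the filter gave a bound of -0.87. Myo5c, an unconventional myosin of epithelia, was at -1.6 with 39.1 and 13.8, and at -0.61 by its other probe set. In the dystrophin and popeye list 8 of 14 genes were measured, and 4 were lower and 0 higher, with a median of -0.80. Besides Popdc3 these were Utrn, which encodes the dystrophin homologue utrophin (75.3 and 27.9, at -1.53), Dtna, which encodes dystrobrevin (173 and 81.8, at -1.18), and Dag1, which encodes dystroglycan (57.8 and 29.7, at -1.06, and -0.96 as deposited). Other probe sets were closer to the median gene, at -0.45 for Utrn and 0.16 for Dtna. None of the 3 skeletal muscle markers on the array was measured.

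Among pathways of secreted signals, the Wnt list had more lower than higher genes. Of 39 Wnt pathway genes on the array, norrin included, 24 were measured, 6 were lower (25%, beside 8.18%) and 2 higher, with a median of -0.49. Besides Ndp, the secreted Wnt antagonist gene Sfrp2 was at least 3.08-fold lower and the coactivator gene Bcl9 at least 2.91-fold. Sfrp5 (-1.30), the Wnt secretion factor gene Wls (-1.05, with 189 and 98.0) and Wnt11 (-1.03) were the others, named after their values were seen. Dvl3, which relays the receptor signal, was at least 3.03-fold higher, and Fzd3, a receptor gene, was at 1.40. The lower count was 4 as deposited, 5 under quantile normalization or lowess, and 2 of 16 with both arrays required to pass.

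In the TGF-beta and BMP pathway 13 of 20 genes were measured, with 3 lower (23.1%, beside 8.18%), all bounds, and 1 higher, and a median of -0.69. The 3 were BMP antagonist genes Bmper and Chrd (at least 2.31-fold lower) and the TGF-beta coreceptor gene Cd109 (at least 2.21-fold lower). Id4, an inhibitor of helix-loop-helix factors and a BMP target, had 265 in saline and 659 in 3-NP, 2.32-fold higher, but 0.13 by its other probe set. With both arrays required to pass, 0 of 9 were lower.

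Of 14 measured growth factor and neurotrophin genes 3 were lower and 2 higher (2 each way as deposited), and their median ratio was -0.02. Fgf9 had 208 and 94.7, at -1.23, and the neurotrophic coreceptor gene Gfra3 was at -1.31. Fgf10 was at least 2.59-fold higher, and Igfbp5, a binding protein of insulin-like growth factors, had 38.5 and 103, at 1.31, with 0.97 by another probe set. Heyl, a Notch target, had 55.1 and 14.3 by its brighter probe set, at -2.04, but -0.07 by the other. Of 20 semaphorin, ephrin, slit and netrin genes 3 were higher (15%, beside 9.21%) and 2 lower (10%, beside 8.18%), with a median of 0.27. Sema3e had 115 and 317, 2.57-fold higher, Efna2 was at least 3.16-fold higher and Ephb3 was at 1.11. Slit2 had 73.7 and 29.7, at -1.41, and -0.47 by its other probe set.

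Intracellular relays went both ways. Of 25 MAP kinase pathway genes 2 were higher and, apart from Mapk4, none lower. Of 26 protein phosphatase regulator genes 3 were lower (11.5%, beside 8.18%) and 0 higher. With Ppp1r1a the lower ones were Ppp1r3b, the glycogen-targeting subunit (160 and 54.7, at -1.65), and Ppp4r2 (128 and 58.6, at -1.22, but 0.15 by another probe set). The calcium and calmodulin-dependent kinase gene Camk1g had 114 and 33.7, at -1.86, while the phosphodiesterase gene Pde4c was at 1.31.

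The matrix showed single large differences more than a common direction. Of 9 measured collagen genes 1 was lower and 0 higher. That one, Col9a3, a chain of the cartilage collagen IX that is also found in the cochlea, had 1166 in saline and 269 in 3-NP, 4.64-fold lower. Of 14 ADAMTS, ADAM, MMP and TIMP genes 3 were higher and 2 lower, with a median of -0.72 that came to -0.02 when dim genes were kept. Besides Adamts4, Adamts15 and Adamts9, proteases of the same aggrecan- and versican-cutting kind, were at 1.18 and 1.12 with 3-NP signals of 43.2 and 25.8. Timp4, a metalloproteinase inhibitor gene, had 177 and 42.2, 4.50-fold lower.

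Of 18 matrix glycoprotein genes 4 were lower (22.2%) and 1 higher. Lamb3, a chain of the basement membrane laminin-332, had 994 and 438, at -1.28, and Eln, the elastin gene, was at least 2.36-fold higher. Loxl3, a collagen crosslinking enzyme gene, was at -1.15. In the glycosaminoglycan list, Papss2, which makes the sulfate donor of cartilage proteoglycans, had 123 and 33.3, 3.96-fold lower. Extl1, a heparan sulfate synthesis gene, was at 1.39, and Chst8 was at 1.12 by one probe set and -0.35 by the other.

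Of 18 integrin and cadherin genes 3 were lower and 1 higher. Itga8, the alpha subunit of a fibronectin and nephronectin receptor, had 155 in saline and 43.6 in 3-NP, 3.81-fold lower, and the N-cadherin gene Cdh2 was at least 2.88-fold lower. The junction gene Jam2 had 309 and 156, at -1.09 (-0.99 as deposited), and 4 further probe sets gave values from -0.95 to -0.13. Cldn14, a tight junction gene linked to deafness, was at 1.09 with 34.9 and 79.5.

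**Figure D4:**
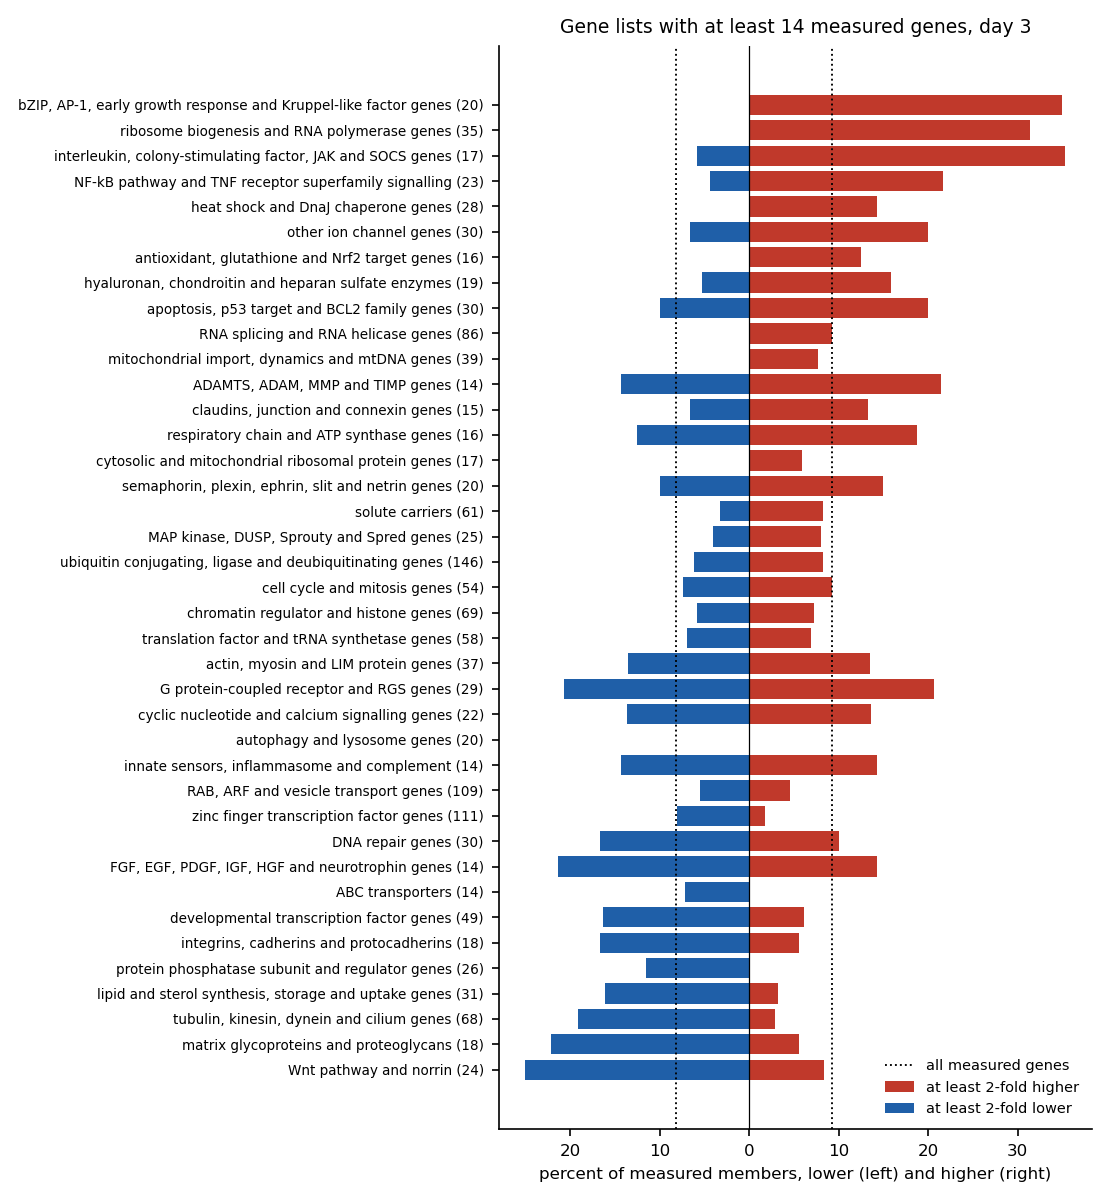
Percent of the measured members of each gene list that were at least 2-fold higher (red, right) or lower (blue, left) in 3-NP at day 3, for lists with at least 14 measured genes, leaving out the interferon list and 1 list not reported here, with the number measured in brackets. Dotted lines mark all measured genes, 9.21% higher and 8.18% lower. The bZIP list reached 35.0% higher with 0 lower and the Wnt list 25% lower, while the autophagy and lysosome list had neither.

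Among transport genes the share called differed by family. Of 61 measured solute carrier genes 5 were higher (8.20%, near the background) and 2 lower. The metal importer genes of the ZIP family Slc39a6 (52.8 in saline and 179 in 3-NP, at 1.66) and Slc39a14 (21.0 and 63.8, at 1.51) were higher, as was Slc1a4, a neutral amino acid transporter gene, at 1.28. Slc39a6 was also probed by further sets at 0.61 and 0.95. Slc5a11, a sodium-coupled inositol transporter gene, had 92.0 and 22.5, 4.39-fold lower, and Slc4a11 was the other lower member.

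Of 30 ion channel genes other than potassium channels 6 were higher (20%) and 2 lower. Lrrc8c, a subunit of volume-regulated anion channels, was at 1.56 with 9.66 and 30.6, and Tmem63c, a mechanosensitive channel gene, was at least 4.0-fold higher. Bsnd, which encodes barttin, the subunit of the chloride channels of the stria, had 44.6 and 12.5, 3.82-fold lower, and Ryr3 was the other lower one. Of 8 measured potassium channel genes 2 were higher (25%, beside 9.21%) and 0 lower, Hcn3 as a bound (1.09, and 0.96 after lowess) and Kcnip1 at 1.07. Of 10 ion pump genes 2 were lower (20%, beside 8.18%, and 1 gene as deposited), Atp1b2 and Atp13a5 (208 and 104, at -1.10).

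Lateral wall markers give the frame for these values. All 6 measured fibrocyte markers lay below the median gene, with 3 at least 2-fold lower (50%, beside 8.18% of all measured genes) and a median of -0.96. The 3 were Vit, Tbx18 and Slc4a11. Their summed signal over all 6 was 15043 in saline and 9886 in 3-NP. Most of that sum came from Slc4a11 (7504 and 3723) and Coch (6548 and 5677). Under quantile normalization and after lowess 2 were lower, and under quantile normalization Coch was above the median gene, at 0.23. Of 9 stria and melanocyte markers 4 were lower and 1 higher, with summed signals of 4411 and 2553, of which Atp1b2 alone made up 2881 and 1356. The higher one was Tyrp1, a pigment enzyme gene of melanocytes, with 4.62 and 69.4, at least 7.03-fold higher, and at 0.69 by its other probe set. Tyr, the tyrosinase gene of melanocytes, had 381 and 114, while Pmel, another melanocyte gene, had 631 and 750, at 0.15. The melanocyte genes thus went both ways, while both lists had medians below the median gene, -0.96 and -0.97. Atp1b2, Tyr and Pmel were far above the floor in both arrays, although a label field says the stria was left out. Bsnd had 44.6 in saline but 12.5 in 3-NP, near that array's floor of 9.85. Whether the samples held stria tissue was not tested.

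The 5 measured bone and cartilage markers had summed signals of 1935 and 743, with Col9a3 the single lower one and a median of -0.77. Endothelial markers went both ways, with 2 of 7 higher and 1 lower. The pericyte receptor gene Pdgfrb was at 0.72, the Schwann cell gene Pmp2 at 1.32, with 11.4 and 30.6, and the mucosal gene Bpifa1 at -1.34. None of 3 erythrocyte markers was measured. Organ of Corti markers summed to 260 and 227, with Sox2 at 0.84 by one probe set and -0.29 by the other and Fgfr3 at -0.89. How far cell content moved with the gene groups above was not tested.

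Genes of energy metabolism went both ways. Of 22 respiratory chain and ATP synthase genes on this array 16 were measured, 3 were higher and 2 lower. The complex I subunit gene Ndufa12 had 112 in saline and 35.2 in 3-NP, 3.39-fold lower, and the ATP synthase gene Atp5f1c was at -1.10 with 35.3 and 17.6. Another ATP synthase gene, Atp5po, was at 1.08 with 13.9 and 31.4, and the assembly factor genes Cox11 and Ndufaf7 were at 1.11 and 1.10. On the day 1 design, where Atp5f1c, Atp5po and Ndufa12 had signals between 840 and 1721, their ratios were -0.46, -0.49 and -0.45, so the day 3 probe sets of these genes were far dimmer.

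Of 39 genes of mitochondrial import, dynamics and DNA 3 were higher and 0 lower. Tomm70, an import receptor of the outer membrane, had 61.7 and 188, 2.84-fold higher, Slc25a28, which carries iron into mitochondria, had 225 and 500, at 1.05, and Afg3l1 was at 1.01. Of 7 measured genes of the tricarboxylic acid cycle and pyruvate use none was 2-fold apart, with Pdk4, a kinase that restrains pyruvate oxidation, at 0.76 (483 and 878). The coactivators of mitochondrial genes diverged. Ppargc1a had 249 and 122, at -1.13 with -1.40 by its other probe set, whereas Ppargc1b was at 1.07 and the related Pprc1 at 2.21.

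In lipid metabolism 5 of 31 synthesis, storage and uptake genes were lower (16.1%) and 1 higher. The oxysterol-binding protein genes Osbpl6 and Osbpl8 were at -1.26 and -1.17, with Osbpl8 at 253 and 121, and the desaturase gene Scd2 was at least 2.62-fold lower. Mmut, the mitochondrial methylmalonyl-CoA mutase gene, had 113 and 50.9, at -1.24, with -1.11 and -0.65 by its other probe sets. Bbox1, the last enzyme of carnitine synthesis, had 176 and 44.1, 4.28-fold lower. Aldh5a1, an enzyme of GABA breakdown, was at -1.53 with 89.0 and 33.0, and at -0.79 by its other probe set.

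In the antioxidant, heat shock and stress response lists, all genes that were 2-fold apart were higher, but after lowess 1 heat shock gene was lower. Srxn1, sulfiredoxin, which repairs overoxidised peroxiredoxins, had 13.1 in saline and 92.6 in 3-NP, 6.61-fold higher, while a dimmer probe set was at the floor on both arrays. Sesn2, a stress-induced inhibitor of mTORC1, had 56.0 and 157, at 1.38, and the cystine transporter gene Slc7a11 had 123 and 258, at 0.96, under the 2-fold line. In all 2 of 16 measured antioxidant genes were higher (12.5%, beside 9.21% of all measured genes) and 0 lower. Of 28 heat shock and DnaJ genes 4 were higher (14.3%) and 0 lower. Both shares rest on few genes and are not far from the background. Hsph1, a chaperone of the HSP110 family, had 96.1 and 266, at 1.37, Hspa2 had 35.3 and 105, at 1.47, Hspa14 was at 1.05, and the glucocorticoid-induced Fkbp5 was at least 3.25-fold higher.

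Aldh1l2, a mitochondrial folate enzyme that the integrated stress response induces, was at 1.59 with 11.3 and 36.5. In the endoplasmic reticulum and integrated stress list 3 of 9 measured genes were higher (33.3%, beside 9.21%) and 0 lower. With both arrays required to pass 2 of 8 were higher. All 3 are counted in other lists too, Sesn2 in the antioxidant, Creb3l3 in the bZIP and Aldh1l2 in the amino acid list. Of 30 apoptosis and p53 genes 6 were higher (20%) and 3 lower. The p53 target genes Aen (33.0 and 120, at 1.77) and Tp53inp1 (at least 3.15-fold) were higher, and Wwox and Cideb (-1.15) were lower. A further Aen probe set below the filter gave a bound of 0.54. Of 30 DNA repair genes 3 were higher and 5 lower, the latter 2 as deposited, with Mlh3, a mismatch repair gene, at least 3.73-fold lower and Ercc6l2 at -1.16. A second Mlh3 probe set, below the filter, lay on the other side, at 0.32 with 12.7 and 17.0.

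Of 54 cell cycle genes 5 were higher (9.26%, at the background) and 4 lower. The replication licensing gene Cdt1 had 13.5 and 55.8, at 1.95, and its inhibitor Gmnn was at least 3.90-fold higher but at the floor in both arrays by another probe set. Mad2l1, of the spindle checkpoint, was at 1.27, and the polymerase subunit gene Pole2 was at least 2.53-fold lower. All these genes had signals under 60.

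Ubiquitin pathway genes were near the background of 9.21% higher and 8.18% lower, and the autophagy list was too small to place against it. Of 146 ubiquitin pathway genes 12 were higher (8.22%) and 9 lower (6.16%, and 6 genes as deposited). Rnf125, a ligase that restrains RIG-I signalling, had 16.2 and 91.7, 5.28-fold higher, Fbxw17 had 63.6 and 246, at 1.85, and Marchf3 was at 1.79. Of 20 autophagy and lysosome genes 0 were 2-fold apart in either direction, with Idua, a lysosomal iduronidase gene, furthest from the median gene at -0.91. Of 109 vesicle transport genes 5 were higher and 6 lower. Ehd3, an endosome recycling gene, had 444 and 151, at -1.66, and the Rab GTPase activator genes Tbc1d24 and Tbc1d8b were at -1.71 and -1.53. Of 7 proteasome genes Psmb5 was at least 2.53-fold lower (1 of 7, 14.3%), with a day 1 ratio of 0.47, and none was higher. Another Psmb5 probe set, below the filter, gave a bound on the other side, 0.13.

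Genes that both array designs measured allow a comparison of the day 3 ratios with those of day 1. There were 1246 such genes, from different arrays, different saline controls and different probe sets. At day 3, 97 were higher and 72 lower. At day 1, 66 were higher (5.30%) and 61 lower (4.90%). Higher on both days were 28, which is 28.9% of the day 3 set and 42.4% of the day 1 set, and 24 of them were outside the interferon and chemokine lists. Lower on both days were 27, or 37.5% and 44.3%.

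Stc1 was at 2.94 on day 3 and 2.17 on day 1, with day 1 signals of 30.4 in saline and 186 in 3-NP. Srxn1 was at 2.73 and 2.39, Nop56 at 2.40 and 1.54, Cep41 at 2.24 and 1.55, Ier5l at 2.01 and 1.44, and Crem at 1.96 and 1.53. Among lower genes Mapk4 was at -2.47 and -2.51, Ppp1r1a at -2.46 and -2.33, Ablim3 at -2.49 and -1.92, Bbox1 at -2.10 and, as a bound, -1.96, Ablim1 at -2.01 and -1.35, Papss2 at -1.99 and -1.15 and Klc3 at -1.84 and -1.11. These genes were on the same side on both days. For Ppp1r1a and Mapk4 the day 1 saline signals, 2937 and 906, were far brighter than those of day 3.

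Other genes differed at day 3 alone by the 2-fold rule, and the difference between days was not tested. Smarca2 was at -2.30 at day 3 and -0.45 at day 1, where its signals were 291 and 288. Tomm70 was at 1.51 and -0.11, Fkbp5 at least 3.25-fold higher and at -0.30, and Wdr43 at 1.57 and 0.41. Dag1 was at -1.06 and 0.49. The probe sets differ between the designs, so a difference between days and one between probe sets cannot be told apart.

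**Figure D5:**
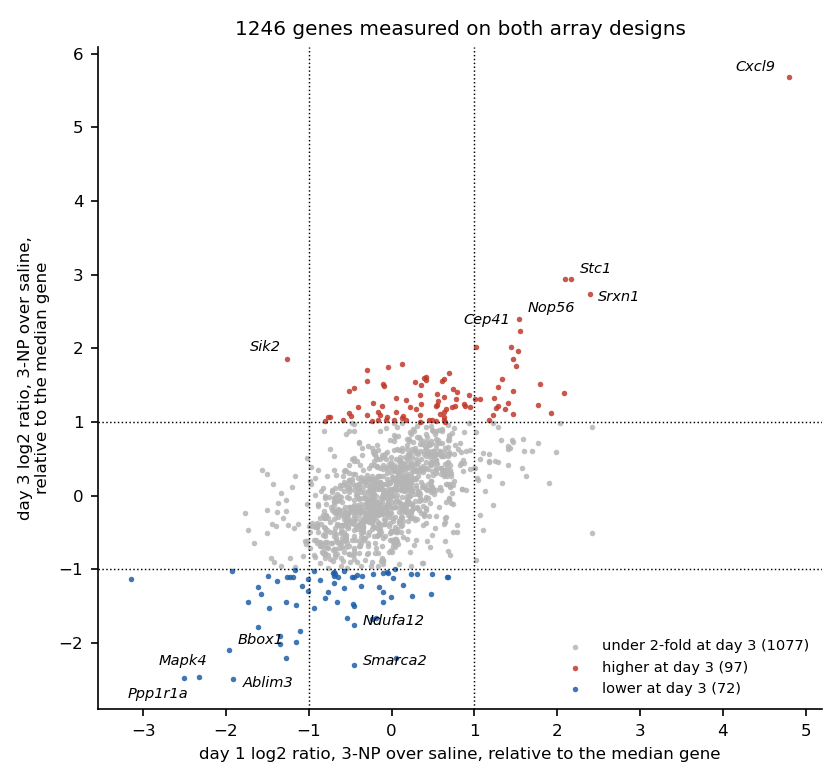
Relative log2 ratios of 3-NP over saline at day 1 (horizontal) and day 3 (vertical) for the 1246 genes measured on both array designs, 1 point per gene and 1 array per group and day, coloured by the day 3 call. Dotted lines mark 2-fold. Higher on both days were 28 genes, such as Stc1, Srxn1 and Nop56, lower on both days 27, such as Mapk4 and Ppp1r1a, and 1 gene, Sik2, was higher at day 3 and lower at day 1.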

How the data were processed

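Biotin-labelled cRNA from 6 µg of total RNA was made and hybridised, per the labels' protocols. For these Affymetrix arrays the authors deposited 1 linear signal intensity for each probe set, with MAS5 named as the tool per the submitters' processing notes. The scaling of signals, present calls and the array build were not stated in the sources used here. On the day 3 design there were 15276 probe sets outside 57 controls, of which 7564 had 1 gene symbol, 100 several and 7612 none. Symbols of the platform annotation were brought up to date by gene identifier, and 5636 of 5669 were found among RefSeq's GRCr8 genes.

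Ratios, floor, filter and calls were computed as given above in Python 3.11.15 with numpy 2.4.6, pandas 2.3.3 and statsmodels 0.14.6 (lowess), and figures were drawn with matplotlib 3.10.9. The code was tested on simulated data. With 1 array per group, precision rests on the number of arrays alone. Up to 4 genes per list, furthest from the median gene, were named, with the 15 highest and lowest, 8 bounds each way, the 10 brightest and a panel. Genes said to be named after their values were seen fall outside this rule, as do Slc7a11, Pmel, Fcgr1a, Laptm5 and Fzd3. The genes and 73 lists were chosen with earlier results of these data known, and unrelated symbols caught by name patterns were removed from 13 lists after values were seen. Of the lists 1 is not reported here. The 9 alternatives tried are given at the end.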

Additional observations from a re-analysis of the deposited data

Results flagged for a closer look

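All but 1 of the genes that were at least 2-fold apart on both days kept their direction. The exception was Sik2, a salt-inducible kinase gene, at 1.85 at day 3, with 12.1 in saline and 46.9 in 3-NP, and at -1.26 at day 1, with 172 and 97.4. It was named after its values were seen, and the difference between days was not tested.

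The array's hexokinase control probe sets, which enter no gene comparison, had higher signals in 3-NP. The 3' set had 60.9 in saline and 141 in 3-NP, which is 1.11 relative to the median gene on the log2 scale, the middle set 59.6 and 119, at 0.90, and the 5' set 30.6 and 48.2, at 0.55. The Gapdh controls lay between 0.48 and 0.59 and the Actb controls between 0.13 and 0.46.

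Probe sets without a gene symbol were left out of the gene counts. Of 3614 measured ones, 341 were at least 2-fold higher (9.44%) and 395 lower (10.9%). At least 8-fold higher were 7 and at least 8-fold lower 2. The highest, 1382950_at and 1398566_at, had 10.8 in saline and 531 in 3-NP, and 9.26 and 353. The lowest, 1397190_at and 1397502_at, had 584 and 59.2, and 152 and 17.4.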

How the results depend on the processing

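Of 9 alternatives, the count of 366 higher and 325 lower genes moved by over 1.5 times under 3. It was 224 and 203 with the floor at the 50th percentile, 183 and 165 of 3271 genes with both arrays required to reach the 50th percentile, and 155 and 148 with a pseudocount of 16. It stayed between 336 and 433 higher and between 255 and 335 lower as deposited, under quantile normalization, after lowess, with the floor at the 20th percentile, without a filter and with the mean of a gene's probe sets. Of 215 named genes 2-fold apart, 209 stayed so as deposited, 208 under quantile normalization and 207 after lowess, while 105 came under 2-fold in at least 1 of the alternatives. Chst8 reversed, to -0.34 with both arrays required, since its other probe set then represents it. Dim signals limit genes under a signal of 50 most. No paired analysis was possible because each group has 1 array.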

Other observations

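Some genes outside the lists that were described were at least 2-fold higher on both days, and are named here after their values were seen. Fpgs, which adds glutamate to folates, was at 1.85 at day 3, with 59.7 in saline and 230 in 3-NP, and at 1.47 at day 1. Nampt, the rate-limiting enzyme of NAD salvage, was at 1.58, with 21.4 and 68.5, and at 1.33 at day 1. Aebp1, a matrix protein gene, was at 1.42 and 1.46. Gas5, a noncoding RNA that hosts small nucleolar RNAs, was at 1.32 and 1.24, and Ipo5, a nuclear importer of ribosomal proteins, at 1.23 and 1.77. Among lower genes Sorl1, a sorting receptor, had 1386 and 429 at day 3, a ratio of -1.79, and was at -1.61 at day 1.

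In the nuclear receptor and circadian clock list 9 genes were measured, with 2 higher and 2 lower and a median of 0.33. Cry1, a clock repressor, had 47.7 and 130, at 1.35. Outside that list, Noct, a clock-linked phosphatase of NADP, had 49.6 and 207, at 1.96. Ch25h, which makes 25-hydroxycholesterol, had 38.4 and 156, at 1.93. Noct and Ch25h were named after their values were seen.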
